A study of Mus musculus with 6 samples.

Results

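STRAP eCLIP in E9.5 mouse embryos was compared with its size-matched input over the 3 libraries titled as embryo libraries, of 6 in the series. All peaks deposited for them were used: 1449 in eCLIP-1, 1309 in eCLIP-2 and 2780 in the input. The embryos of all 3 libraries were labelled wild type, strain C57BL/6 and prenatal day 9.5, and no library came from a mutant or a treated animal. A legend of the study gives a slightly earlier stage for the pooled embryos. After UV crosslinking, RNA bound to STRAP was pulled down with an anti-STRAP antibody for the 2 eCLIP libraries, which came from independent pools of whole embryos. The input took RNA fragments of the same size range from lysate without the pull-down, and 1 input library served both eCLIP libraries. The summit of a peak decided its gene, and where genes overlap there the protein-coding one was taken. With 2 libraries against 1, an exact permutation test cannot go below p = 0.333, so no test across libraries was run. Fisher's exact tests below, all two-sided, set single libraries against each other and cover counting error only. A whole-embryo library mixes cell types, so the number of cells that make a transcript and the amount bound per cell cannot be told apart.

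STRAP (serine-threonine kinase receptor-associated protein, also called UNRIP) is a WD-repeat protein first known from TGF-β signalling. It is also a partner of the SMN complex, which loads Sm proteins onto the small nuclear RNAs of the spliceosome. In eCLIP, UV light joins a protein to the RNA it touches, the protein is pulled down, and the RNA fragments are sequenced. The size-matched input carries the fragments that the lysate holds in any case, so abundant transcripts and structural RNAs occur in it too.

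Sequences under the summits are shown for the 8 genes with the most eCLIP tags in a region that both eCLIP libraries called, the input did not, and whose summits lay in coding exons. Each is the eCLIP-1 summit with 50 bases on either side, on the gene's strand, from the GRCm38 assembly. Capitals mark matches on the printed strand to 5 hexamers, which are counted on both strands further on: the purine run GAAGAA, its variant with guanines GAGGAG, the mixed forms written GAAGAG and, in the other order, GAGGAA, and as a repeat with a cytosine GCAGCA.
mt-Nd5: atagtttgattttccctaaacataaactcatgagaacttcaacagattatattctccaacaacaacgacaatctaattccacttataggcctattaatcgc
Hsp90ab1: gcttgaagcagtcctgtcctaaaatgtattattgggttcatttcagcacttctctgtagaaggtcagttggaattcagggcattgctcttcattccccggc
Rpl4: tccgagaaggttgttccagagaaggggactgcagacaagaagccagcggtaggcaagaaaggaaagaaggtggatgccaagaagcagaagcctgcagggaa
Sox11: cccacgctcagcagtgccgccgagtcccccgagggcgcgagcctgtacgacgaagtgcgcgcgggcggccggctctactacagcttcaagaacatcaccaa
Peg3: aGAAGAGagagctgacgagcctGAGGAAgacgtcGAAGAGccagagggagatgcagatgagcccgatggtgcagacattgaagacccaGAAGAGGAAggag
Hnrnpu: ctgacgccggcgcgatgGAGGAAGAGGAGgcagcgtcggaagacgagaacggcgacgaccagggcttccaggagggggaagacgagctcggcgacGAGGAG
Tubb5: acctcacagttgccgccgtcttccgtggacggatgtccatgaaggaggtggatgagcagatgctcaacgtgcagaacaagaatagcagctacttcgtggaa
Hist1h1b: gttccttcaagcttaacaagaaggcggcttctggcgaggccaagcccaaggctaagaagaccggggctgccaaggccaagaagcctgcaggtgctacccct
The Peg3 window (chr7:6707793-6707893, minus strand, exon 9 of 9) held 5 matches, which overlap in places, in 74.3% A and G. The Hnrnpu window (chr1:178337143-178337243, minus strand, exon 1 of 14) held 4 matches in 71.3% A and G. The other 6 windows held 0 matches. Among them, the Rpl4 window (chr9:64178277-64178377, plus strand, exon 10 of 10) was 73.3% A and G, although none of the searched hexamers occurred in it. The Hsp90ab1 window (chr17:45569772-45569872, minus strand, exon 7 of 11) had 55 coding bases, and its eCLIP-1 and eCLIP-2 summits were 1 base apart. The Hist1h1b window (chr13:21780147-21780247, minus strand, exon 1 of 1) belonged to a linker histone gene, where the summits lay 308 bases apart. The remaining windows were at chrM:12297-12397 (mt-Nd5, plus strand), chr12:27341576-27341676 (Sox11, minus strand) and chr17:35835288-35835388 (Tubb5, minus strand, exon 4 of 4).

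The libraries differed in depth and in how much of it the peaks held. eCLIP-1 had 136935 tags, eCLIP-2 had 185125 and the input had 6289516, where a tag is 1 aligned read that the peak caller kept. Peaks held 16.0% of the tags in eCLIP-1 (95% exact binomial interval 15.8 to 16.1), 13.5% in eCLIP-2 (13.3 to 13.7) and 0.989% in the input. The smallest peak had 3 tags in eCLIP-1 and 4 in eCLIP-2, which is 21.9 and 21.6 tags per 1000000 library tags (RPM), against 10 tags or 1.59 RPM in the input. An input peak would need 138 tags to reach the 21.9 RPM of the smallest eCLIP-1 peak, and 39 of 2780 input peaks (1.4%) did. Tag density inside the peaks was alike before any scaling, at 33.4 and 38.8 tags per kb in eCLIP-1 and eCLIP-2, against 36.7 in the input. Input tags outside input peaks are not in the lists, so a gene with no input peak is not a gene without input tags, and no fold is given for such genes.

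Peaks of both eCLIP libraries fell in 504 genes, which is 20.9% of the 2417 genes with a peak in any of the 3 libraries. They made up 50.1% of the 1006 genes peaked in eCLIP-1 and 57.5% of the 876 peaked in eCLIP-2. Of the 504, 450 were protein-coding, or 2.05% of annotated protein-coding genes. The input peaked in 147 of the 504 (29.2%, and 11.6% of the 1263 input genes), and 357 had no input peak, which is 14.8% of all genes with a peak. These counts rest on the far lower limit of the deeper input: with only input peaks of at least 21.9 RPM kept, 7 of the 504 had an input peak and 497 had none. In 394 of the 504 genes an eCLIP-1 peak and an eCLIP-2 peak overlapped, and in the rest the libraries called different places in the same gene.

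Among the 357 genes with no input peak, tag shares were highest at mt-Nd5, Hsp90ab1, H19 and the locus that holds Igf2. mt-Nd5, a mitochondrial subunit of respiratory complex I, held 301 tags in eCLIP-1 and 393 in eCLIP-2, or 2200 and 2120 RPM. Its peak ran over 4452 and 4891 bases of the mitochondrial genome (chrM:10847-15738 in both together), past both ends of the gene. Hsp90ab1, the constitutive cytosolic HSP90 chaperone, held 212 and 267 tags (1550 and 1440 RPM) over most of its transcript. H19, the maternally expressed imprinted noncoding RNA, held 187 and 204 tags (1370 and 1100 RPM) in 1 peak per library. Next came a locus named Gm49394 in the annotation, with 131 and 149 tags, whose summits also lay in Igf2, the paternally expressed growth factor gene beside H19. At these 4 loci the 95% Poisson intervals of the eCLIP-1 and eCLIP-2 shares overlapped.

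Hnrnpu and Chd4 came next by mean share. Hnrnpu, which codes for the scaffold-attachment hnRNP U, held 121 tags in eCLIP-1 and 137 in eCLIP-2 (884 and 740 RPM). Chd4, the ATPase of the NuRD remodelling complex, held 104 and 83 tags (759 and 448 RPM), the widest gap between the 2 libraries among the 12 genes with the highest shares. Rpl4, a large-subunit ribosomal protein, held 72 and 80 tags, and Peg3, a paternally expressed zinc-finger gene, held 74 and 75. Sox11, a transcription factor of neural progenitors with a single exon, held 70 and 72. Hist1h1e, a linker histone, held 63 and 71. All of them were covered in both eCLIP libraries, and the input list had no peak in any of them. A few loci carried much of the signal. Among the 504 genes, the top 5 held 34.7% of gene tags in eCLIP-1 and 34.0% in eCLIP-2, and the top 20 held 49.1% and 48.4%. The top 5 were Gm42418, which lies over an rRNA copy, mt-Rnr1, a mitochondrial rRNA, mt-Nd5, Malat1 and Cdk8. Of these only mt-Nd5 had no input peak. Gm42418 and mt-Rnr1 held 2601 and 1617 tags in eCLIP-1, against 307 at Malat1, 301 at mt-Nd5 and 288 at Cdk8.

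**Figure D1:**
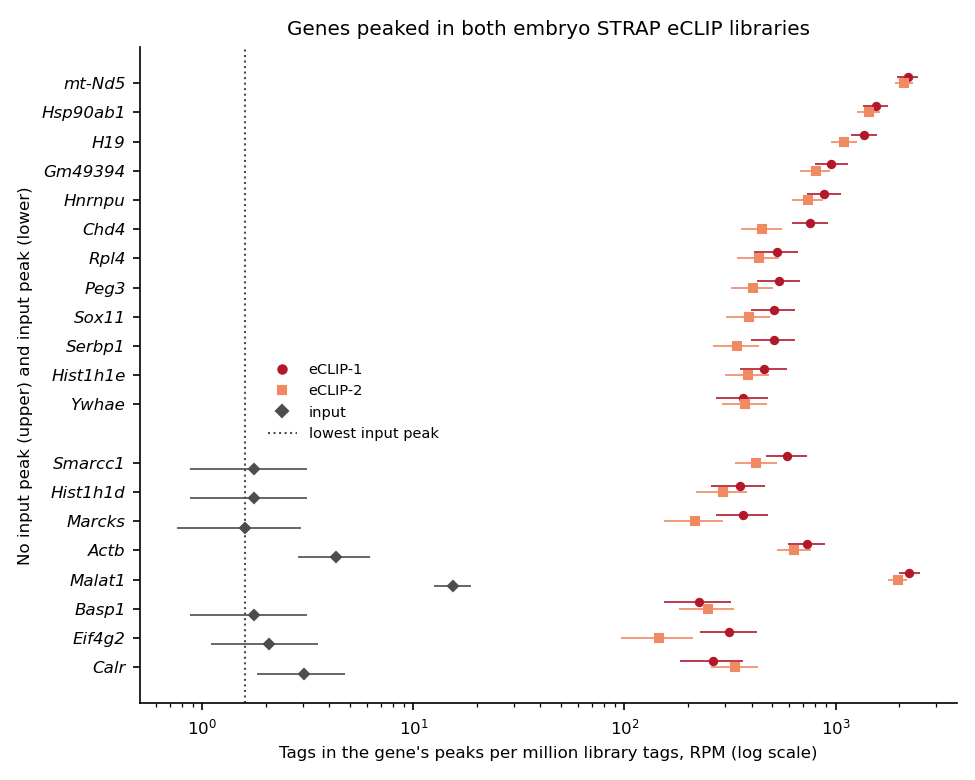
Tags in a gene's peaks in RPM on a log axis, with 95% Poisson intervals, for the 12 genes with the highest eCLIP share and no input peak (upper) and the 8 with the highest ratio to the input (lower). eCLIP-1 and eCLIP-2 lie together for mt-Nd5 at 2200 and 2120 RPM, and the input points of the lower genes run from its smallest peak at 1.59 RPM (dotted) to 4.29 for Actb, with Malat1 at 15.4.

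Some transcripts carried several separate eCLIP regions, mostly in coding exons. Smarcc1, the BAF155 core subunit of the BAF chromatin remodelling complex, had 11 peaks in eCLIP-1 and 8 in eCLIP-2, with 6 regions shared by both. The 6 lay on exons between bases 110131849 and 110235071 of chromosome 9 and held from 4 to 13 eCLIP-1 tags each. Its single input peak, with 11 tags, lay in an intron (chr9:110180189-110180526) and touched no eCLIP peak. Serbp1, an mRNA-binding protein found on ribosomes, had 5 regions in both eCLIP libraries, every one of them in a coding exon, with 70 and 63 tags over the gene. Ywhae, the 14-3-3 epsilon adaptor, had 4: 1 in the 5′ UTR, 2 in coding exons and 1 in the 3′ UTR. Smarca4, the BRG1 ATPase of the same complex as Smarcc1, had 7 peaks in each eCLIP library, 3 of them shared, with 44 and 53 tags. Chd4, Ybx1 and Nedd4 had 3 shared regions each. Gm20388 and Tex14 had 4 each, but Gm20388 is a readthrough model that spans a cluster of 5S rRNA genes, and the Tex14 summits also lay in Rnu1a1, Rnu3b1 and Rnu3b3, genes for small nuclear and nucleolar RNAs.

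Where both eCLIP libraries called a region that the input did not, they placed it similarly. Over 406 such regions the median distance between the 2 summits was 18.5 bases, and 290 (71.4%) were within 50 bases. The tag share in eCLIP-1 over that in eCLIP-2 lay within 2-fold in 360 of 406 (88.7%), from 0.369 to 2.97. Across these regions the log2 shares of the eCLIP libraries had Pearson's r = 0.862 and Spearman's rho = 0.767, as a description, since regions are not independent replicates and both libraries share one protocol. Across the 504 genes r was 0.88 and rho 0.785. In the 210 regions that the input held too, the median distance was 6.0 bases and r between the eCLIP libraries was 0.972. There rho with the input was 0.813 for eCLIP-1 and 0.812 for eCLIP-2. Shared regions were defined by overlapping peaks, so nearby summits are partly built in.

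Genes peaked in only 1 eCLIP library were many and mostly shallow. eCLIP-1 but not eCLIP-2 peaked in 502 genes, at a median of 4 tags, and eCLIP-2 but not eCLIP-1 in 372, at a median of 5. Scores under 60, close to the caller's limit of 50, were held by 48.1% of peaks in genes peaked in eCLIP-1 but not eCLIP-2, against 28.0% in genes peaked in both. For eCLIP-2 these shares were 42.5% and 22.1%. Map1b, a microtubule-associated protein of growing axons, was an exception in size, with 227 tags in 3 eCLIP-1 peaks and no eCLIP-2 peak. Its 2 large peaks had scores of 60.05 and 50.19 and stood 3.98-fold and 4.26-fold over their surroundings. Chd3, a NuRD ATPase like Chd4, showed the reverse with 61 tags in 3 eCLIP-2 peaks and no eCLIP-1 peak. Tags outside peaks are not listed, so a missing peak gives no level for that library.

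Exons held most eCLIP peaks in genes, and introns and intergenic sequence held nearly all input peaks. Coding exons held 36.9% of eCLIP-1 peaks and 34.6% of eCLIP-2 peaks, against 2.16% of input peaks (Fisher's exact test of each library against the input, adjusted p = 9.15e-207 and 2.15e-179 over 12 comparisons). The 5′ UTR held 11.9% and 11.2%, against 1.83% in the input. The 3′ UTR held 8.49% and 10.1%, against 1.15% in the input. Exons of noncoding genes held 3.86% and 4.35%, against 1.65% in the input (Fisher's exact test, adjusted p = 1.83e-05 and 9.84e-07). Introns held 25.7% and 24.5% of eCLIP peaks and 44.2% of input peaks (Fisher's exact test, adjusted p = 1.38e-32 and 1.34e-34). With the score limit raised to 100, the intron shares were 33.5% and 31.9% in eCLIP and 37.0% in the input (Fisher's exact test, adjusted p = 0.288 and 0.103), and coding exons held 14.9% and 12.3%, against 1.73% in the input (Fisher's exact test, adjusted p = 5.86e-13 and 5.28e-11). At that limit introns thus held more eCLIP peaks than coding exons did. Sequence outside genes held 13.0% and 15.3% of eCLIP peaks and 49.0% of input peaks. Peaks in the same transcript are not independent, which these tests do not cover. The shares also compare lists with unlike lower limits, 21.9 and 21.6 RPM in eCLIP-1 and eCLIP-2 against 1.59 RPM in the input.

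By tags rather than peaks the exon share was smaller. Coding exon peaks held 22.2% of peak tags in eCLIP-1, 19.7% in eCLIP-2 and 4.0% in the input. Exons of noncoding genes held 24.0%, 24.1% and 16.2%, mostly in the 2 rRNA regions described below. Protein-coding genes held 81.4% and 78.4% of eCLIP peaks, against 42.6% of input peaks. Genes for small and structural RNAs held 2.76% and 2.67%, against 0.576%. Genes for long noncoding RNAs held 2.28% and 3.06%, against 7.05%. For pseudogenes the shares were 0.552% and 0.611% in eCLIP and 0.827% in the input (Fisher's exact test, adjusted p = 0.389 and 0.564 over 10 comparisons).

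**Figure D2:**
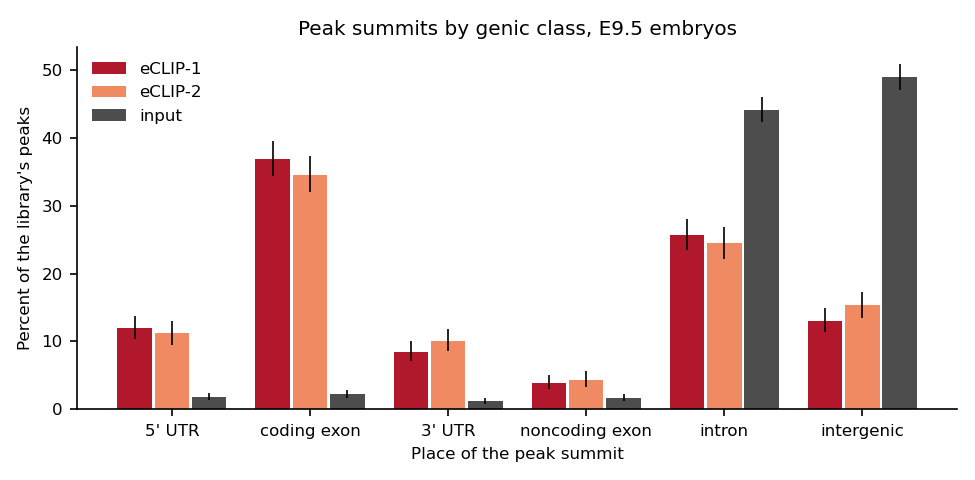
Percent of each library's peaks (bars, with 95% exact binomial intervals) by the place of the summit, for eCLIP-1, eCLIP-2 and the input. The eCLIP bars at coding exons stand at 36.9% and 34.6% over an input bar of 2.16%, and the order turns at introns and intergenic sequence, where the input reaches 44.2% and 49.0%.

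In the 147 genes peaked in all 3 libraries the eCLIP tag share was far above that of the input almost throughout. The lists largely set this in advance, since an eCLIP peak held at least 21.6 RPM and an input peak as little as 1.59 RPM. The median ratio of tags in peaks per library tag was 30.6 for eCLIP-1 over input (2.87 to 338) and 31.2 for eCLIP-2 over input (4.85 to 241). By Fisher's exact test in each library, adjusted over the 147, and at least 2-fold, 145 (98.6%) were higher in both eCLIP libraries. Nearly the whole table was called, so the count says nothing about single genes. The share of all tags that lay in peaks was itself 16.1-fold and 13.7-fold that of the input. Taken as a share of tags in peaks, the median ratios were 1.9 and 2.28, and 62 of 147 genes (42.2%) were higher and 1 (0.68%) lower in both eCLIP libraries. Ratios are therefore read here against the median over the 147 genes, which was 4.95 on the log2 scale (quartiles 4.2 and 5.64).

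The 8 highest ratios were those of Smarcc1, Hist1h1d, Marcks, Actb, Malat1, Basp1, Eif4g2 and Calr. Smarcc1 had 81 tags in eCLIP-1, 78 in eCLIP-2 and 11 in the input, a ratio of 338 (95% interval 179 to 704) and 241 (128 to 502). Its mean log2 ratio was 8.16, which is 3.21 above the median, but eCLIP peaks covered 3543 and 3091 bases at 22.9 and 25.2 tags per kb, against 338 bases at 32.5 tags per kb in the input. The ratio thus comes with more called sequence in eCLIP, at another place in the gene. Hist1h1d, a linker histone, had 48, 54 and 11 tags at the same place in all 3 libraries, with ratios of 200 and 167. Its tag density was 54.2 and 61.9 per kb in eCLIP, against 26.2 per kb in the far deeper input. Marcks, an actin-binding substrate of protein kinase C, had 50, 40 and 10 tags, with ratios of 230 and 136. Actb, cytoplasmic β-actin, had 100, 118 and 27 tags, with ratios of 170 (110 to 271) and 148 (97.1 to 235).

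Malat1, an abundant noncoding RNA of nuclear speckles, had the most tags of the 8 genes with the highest ratios. It held 307 tags in eCLIP-1, 366 in eCLIP-2 and 97 in the input, with ratios of 145 (115 to 185) and 128 (102 to 162). Basp1, a membrane protein of growth cones, had 31, 46 and 11 tags and a mean log2 ratio of 7.08. Eif4g2, a translation initiation factor related to eIF4G, had 43, 27 and 13 tags and 6.69. The input peaks of Basp1 and Eif4g2, like that of Smarcc1, touched no eCLIP peak, so their ratios set different places in the gene side by side. Calr, the calcium-binding chaperone calreticulin of the endoplasmic reticulum, had 36, 62 and 19 tags and 6.62. Each of the 8 was higher in both eCLIP libraries under both scalings. Per kb of called sequence, however, the log2 ratios of Smarcc1, Marcks, Basp1 and Eif4g2 lay below the median of the 147 genes, at -0.50, -0.43, -0.91 and -0.06 relative to it, while those of Hist1h1d, Actb, Calr and Malat1 stayed above it by 1.09, 0.51, 0.41 and 0.22.

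The 8 lowest ratios among called genes changed sign with the scaling. They were Hmgb1 (mean log2 ratio 3.51), Kdm1a (3.39), Gm20388 (3.14), Magi1 (3.01), Nedd4l (2.89), Dab1 (2.77), Phactr2 (2.66) and Dlgap4 (2.57). Dlgap4, a postsynaptic scaffold gene, had 3 tags in eCLIP-1, 4 in eCLIP-2 and 23 in the input. As a share of tags in peaks its mean log2 ratio was -1.32, and that of Hmgb1, a DNA-bending chromatin protein, was -0.38. Genes whose eCLIP and input peaks overlapped had a median log2 ratio of 5.13 (115 genes), and those with peaks at other places 4.22 (32 genes).

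**Figure D3:**
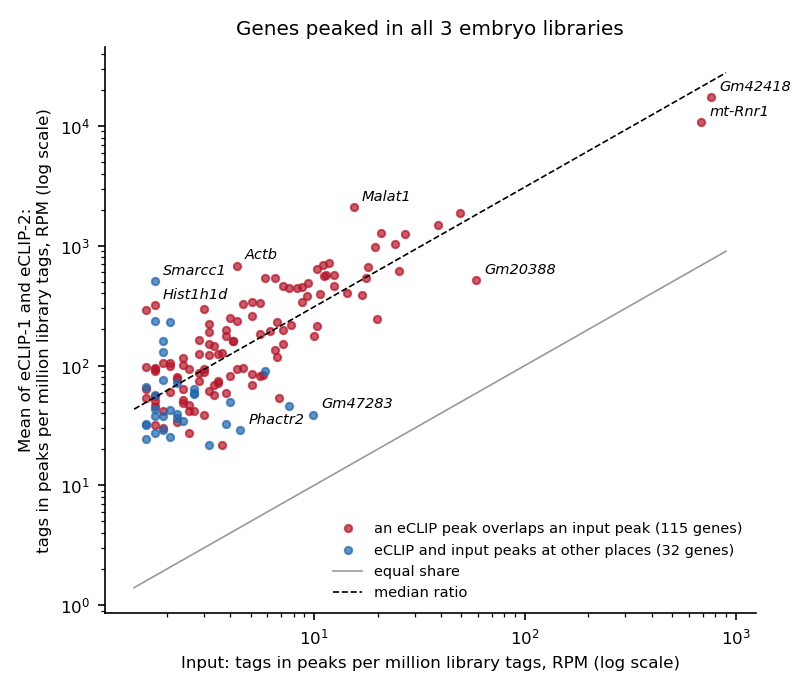
Mean eCLIP tag share (tags in peaks, in RPM) against the input share, both on log axes, for the 147 genes peaked in all 3 libraries, with the line of equal share and the median ratio (dashed). All 147 genes lie above equal share, which the unlike lower limits of the peak lists largely set. Smarcc1, Actb and Malat1 lie above the median, and Gm42418 and mt-Rnr1 lie at the far right, below the median line.

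The most abundant regions were ribosomal. Gm42418 lies on chromosome 17 over an annotated rRNA copy, and its region held 2601 tags in eCLIP-1, 2921 in eCLIP-2 and 4787 in the input (19000, 15800 and 761 RPM). mt-Rnr1, the mitochondrial small-subunit rRNA, started a region of 6582 bases with 1617, 1825 and 4309 tags (11800, 9860 and 685 RPM). The mt-Rnr1 summits lay at bases 532, 540 and 502 of the mitochondrial genome in eCLIP-1, eCLIP-2 and the input.

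Regions called in all 3 libraries held most eCLIP peak tags, but not most input peak tags, and most had a repeated word near the summit. There were 210, with 57.8% of peak tags in eCLIP-1, 59.4% in eCLIP-2 and 30.5% in the input. As a share of library tags, 209 of the 210 (99.5%) were higher in both eCLIP libraries, a count that the unlike lower limits of the lists largely set. As a share of tags in peaks 99 (47.1%) were higher and 4 (1.9%) lower. In these regions the window of 100 bases on either side of the eCLIP-1 summit held a 31-base word found elsewhere in the genome in 80.5%, and aligned to rRNA, other structural RNA or the mitochondrial genome in 29.5%. A single such word was enough, so a window counted here need not be repeated over its whole length. In regions held by both eCLIP libraries and not by the input these shares were 50.9% and 15.2%, and in regions of eCLIP-1 alone 25.2% and 2.35%. Input regions held by no eCLIP library stood at 54.9% and 2.54%. Jarid2, a cofactor of the PRC2 complex, shows the pattern: its 148 eCLIP-1, 180 eCLIP-2 and 152 input tags all lay in 1 intronic region (chr13:44869415-44870434) with such a word, and none of its peaks lay on an exon. Cd44, a hyaluronan receptor, had 52, 51 and 29 tags in a single intronic region that also held such a word. Without windows that hold a repeated word or align to structural RNA, 242 genes were peaked in both eCLIP libraries, 212 of them with no input peak and 30 (12.4%) with one. The part of read placement in these regions was not tested.

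**Figure D4:**
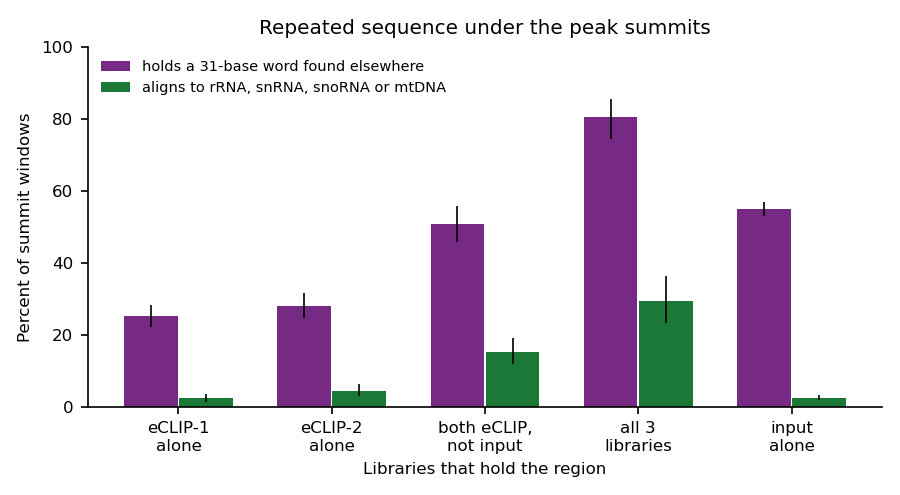
Percent of summit windows, 100 bases to either side (bars, with 95% exact binomial intervals) that hold a 31-base word found elsewhere in the genome, or that align to structural RNA or mitochondrial DNA, by the libraries that hold the region. Regions held by all 3 libraries reach 80.5% and 29.5%, and those of eCLIP-1 alone 25.2% and 2.35%, with regions of both eCLIP libraries in between at 50.9% and 15.2% (eCLIP-1 summits where eCLIP-1 holds the region).

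Genes peaked in eCLIP had shorter genomic spans than those peaked in the input alone, of which there were 1039, or 82.3% of the input genes. Protein-coding genes in both eCLIP libraries with no input peak had a median span of 31.7 kb and those peaked in all 3 had 76.8 kb, against 89.3 kb for genes peaked in the input alone and 17.4 kb over all annotated protein-coding genes. Their longest transcripts did not follow this order, with medians of 3.71, 4.57, 4.02 and 2.68 kb in the same sequence of groups. The median number of exons was 11, 14, 12 and 7. Among the genes peaked in the input alone, the most input tags lay in Gm21738 (870), 2700054A10Rik (654), Gm10800 (480), Drg1 (357), Gm10717 (285), Gm10801 (269), Tmem267 (235) and Gm33838 (190), none with an eCLIP peak. The largest input region of Drg1, a GTPase gene, was intronic and held a repeated word, as did the largest of Gm21738, Gm10800 and 2700054A10Rik.

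**Figure D5:**
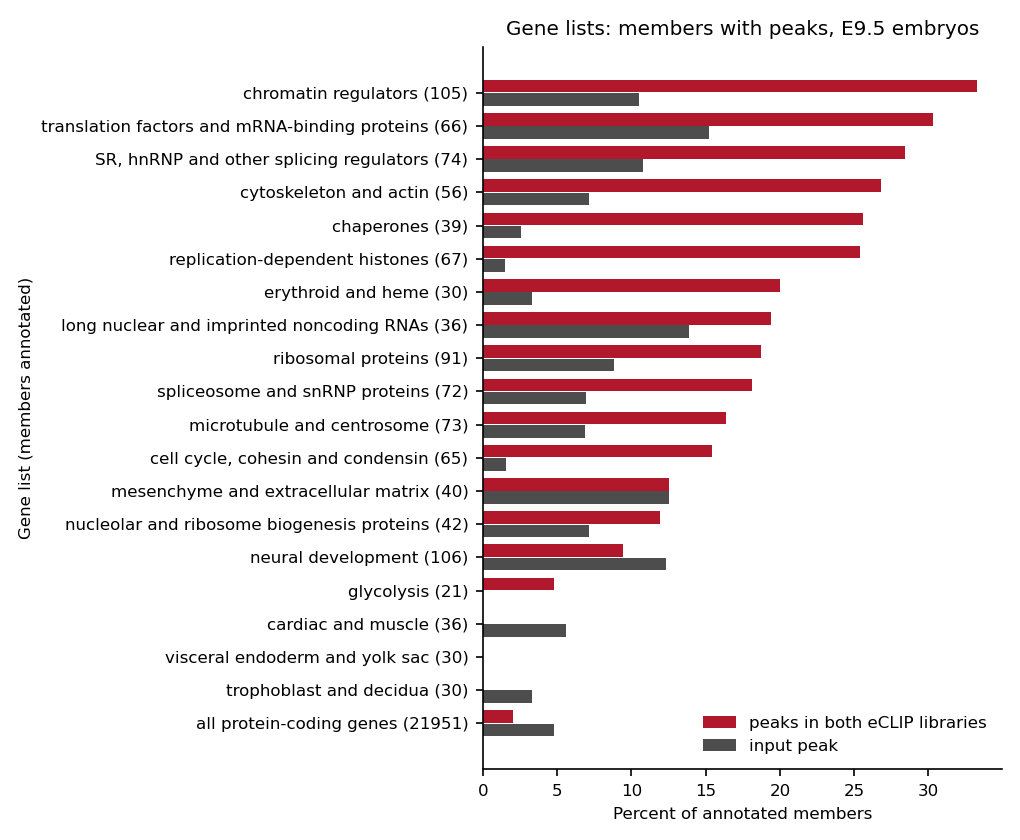
Percent of the annotated members of each gene list, with the number of members in brackets, that had peaks in both eCLIP libraries (red) or a peak in the input (grey), with all protein-coding genes at the bottom. Chromatin regulators reach 33.3% in eCLIP over 10.5% in the input. Neural development genes stand at 9.43% and 12.3%, the same order as all protein-coding genes at 2.05% and 4.78%.

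By function, 19 lists of genes by role and 1 of genes that the study names were counted, with no set test. For reading the counts, 2.05% of all protein-coding genes were peaked in both eCLIP libraries and 4.78% in the input, and 202 of the 504 genes (40.1%) were on a list. With a summit counted in every gene that spans it, 20 ribosomal protein genes were in both eCLIP libraries in place of 17, 7 mesenchyme genes in place of 5 and 9 long noncoding RNAs in place of 7, and 8 of the last had an input peak in place of 5. Each other list gained at most 1 gene in both. Abundant transcripts are peaked more easily in any library, and transcript abundance is not in these files, so its part in the list counts was not tested.

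RNA processing genes were peaked often. Of 72 spliceosome and snRNP proteins, 13 were peaked in both eCLIP libraries (18.1%), 11 of them with no input peak, and 5 had an input peak. Sf3b2, a U2 snRNP component, held 29 tags in eCLIP-1 and 27 in eCLIP-2, and the helicase Ddx5 held 23 and 33. Srrm2, a speckle scaffold, held 27 and 16. Snrnp70, the U1 70K protein, held 16, 13 and, in the input, 16. At scores of 100 or more, 0 of the 13 were peaked in both libraries, against 188 of all 504 genes. Of 74 SR, hnRNP and other splicing regulators, 21 were in both (28.4%) and 8 had an input peak. Beside Hnrnpu these included Ybx1, a cold-shock mRNA-binding protein (93, 74 and 41 input tags), Sfpq, a paraspeckle protein (66, 35 and 32), and Hnrnpa0 (38 and 39, no input peak).

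Translation genes followed. Of 91 ribosomal protein genes, 17 were in both eCLIP libraries (18.7%) and 8 had an input peak. Rpl26, a large-subunit protein, held 15 tags in eCLIP-1 and 6 in eCLIP-2, with no input peak. Rpl12 held 7, 19 and 14 input tags, and 43.5% of the eCLIP peaks in ribosomal genes were intronic, where many of these genes host snoRNAs. Of 66 translation factors and mRNA-binding proteins, 20 were in both (30.3%) and 10 had an input peak. Eef1a1, the elongation factor that brings tRNA, held 48 and 46 tags, Eef2, the translocase, held 25 and 63, and Pabpc1, the poly(A)-binding protein, held 37, 46 and 32 input tags. Of 42 nucleolar and ribosome biogenesis genes, 5 were in both (11.9%) and 3 had an input peak. Ncl, nucleolin, held 86, 84 and 37 tags, Npm1 held 18, 15 and 12, and Ddx21 and Nop58 had no input peak at 7 and 19, and 7 and 11 tags.

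Chromatin regulators had the highest share. Of 105, 35 were in both eCLIP libraries (33.3%), 26 of them with no input peak, and 11 had an input peak. Summed over the list, their peaks held 6380 RPM in eCLIP-1, 5310 in eCLIP-2 and 51.0 in the input. Of these, 1080, 972 and 24.2 RPM were those of Jarid2, all in the single intronic region described above. Of their eCLIP peaks 64.4% were in coding exons, against 2 of 12 input peaks. Over all peaks in genes, coding exons held 535 of 1260 in eCLIP-1, 453 of 1109 in eCLIP-2 and 60 of 1418 in the input. The share was not particular to this list: it was 68.6% in the spliceosome list and in the cell cycle list. It was 68.4% in the microtubule list and lower in most others. At scores of 100 or more, 6 of the 35 remained in both libraries, against 188 of all 504 genes. Of 67 replication-dependent histone genes, 17 were in both (25.4%) and 1, Hist1h1d, had an input peak. Hist1h1e, Hist1h1b (46 and 59 tags), Hist1h1d and Hist1h1a (37 and 44), all linker histones, led the list. Their eCLIP peaks lay in coding exons in 93.0%, in genes that have no introns, and near-identical core histone genes can share reads. Of 65 cell cycle, cohesin and condensin genes, 10 were in both (15.4%) and 1 had an input peak. Top2a, the replicative topoisomerase, held 25 and 22 tags, Smc1a and Smc3 of cohesin held 20 and 20, and 13 and 17, and Incenp of the chromosomal passenger complex held 11 and 25.

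Cytoskeleton and chaperone genes were also frequent. Of 56 actin cytoskeleton genes, 15 were in both (26.8%) and 4 had an input peak. Myh10, a nonmuscle myosin, held 38 and 38 tags, and Cfl1, the actin-severing cofilin, held 29 and 36, with no input peak. Of 73 microtubule and centrosome genes, 12 were in both (16.4%) and 5 had an input peak. Tubb5, a β-tubulin, held 45 and 71 tags, Akap9, a centrosomal scaffold, 30 and 15, Tuba1a, an α-tubulin, 21 and 12, and Cenpe, a kinetochore kinesin, 8, 17 and 12 input tags. The list's sum was 3030 RPM in eCLIP-1 and 1100 in eCLIP-2, and Map1b held 227 of its 415 eCLIP-1 tags. Of 39 chaperones, 10 were in both (25.6%) and 1, Calr, had an input peak. The cytosolic Hspa8 held 41 and 31 tags and Hspa5, of the endoplasmic reticulum, 33 and 29. Of 21 glycolysis genes, 1 was in both, Aldoa at 3 and 7 tags, and 0 had an input peak.

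Lists of developmental and tissue genes ran from no gene in both eCLIP libraries to 20.0%. Of 106 neural development genes, 10 were in both eCLIP libraries (9.43%), 8 of them with no input peak, and 13 had an input peak (12.3%). Sox11 led, followed by Nedd4, a ubiquitin ligase (43 and 78 tags), Calr, and Gpc3, a heparan sulfate proteoglycan (47 and 25). Nedd4 and Calr are also among the genes that the study names from these experiments, and Calr is also on the chaperone list. The eCLIP peaks of this list were intronic in 20.0%, against 87.5% of its input peaks. Over all peaks in genes, introns held 373 of 1260 in eCLIP-1, 321 of 1109 in eCLIP-2 and 1229 of 1418 in the input. The input share of this list was thus close to that of input peaks in genes at large. Of 40 mesenchyme and extracellular matrix genes, 5 were in both (12.5%) and 5 had an input peak. Beside Peg3 and Cd44 these were Fn1, fibronectin (11 and 9), Fstl1 (6 and 6), and Vcan (3 and 10). Of 30 erythroid and heme genes, 6 were in both (20.0%) and 1 had an input peak. The embryonic globins Hba-x and Hbb-y held 43 and 54, and 21 and 26 tags, Epb41, a red cell membrane skeleton protein, 27 and 13, and Ftl1, ferritin light chain, 5 and 17. Of 36 cardiac and muscle, 30 visceral endoderm and yolk sac and 30 trophoblast and decidua genes, 0 were in both, and 2, 0 and 1 had an input peak.

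Defining markers of embryonic cell types were mostly without peaks. Of 19, 6 were given a peak in any library, 3 in both eCLIP libraries (Hba-x, Hbb-y and Fn1) and 0 in the input. Sox2 and Pax6 of neural cells, Myl7, Tnnt2 and Ttn of heart and Afp, Ttr and Apoa1 of visceral endoderm had no peak in any of the 3. Nes, of neural progenitors, had 5 tags in eCLIP-1 alone. Tubb3, a neuronal tubulin, had 5 tags in its 3′ UTR in eCLIP-2 alone, which the gene rule gave to the readthrough model Gm20388, so that 7 of 19 held a summit.

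Long nuclear and imprinted noncoding RNAs held 4330 RPM in eCLIP-1, 3800 in eCLIP-2 and 32.9 in the input, and 7 of 36 were in both eCLIP libraries (19.4%), 3 of them with an input peak. Of all 36, 5 had an input peak. Most of these tags were those of Malat1 and H19. Meg3, a maternally expressed imprinted RNA, held 30 and 32 tags with no input peak. Rn7sk, the 7SK RNA that restrains P-TEFb, held 31, 45 and 27 tags, and its window aligned to structural RNA copies.

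The study names 8 genes for eCLIP, a list drawn from these experiments and so no independent evidence, and 2 of them were peaked in both embryo eCLIP libraries by the rule used here. Nedd4 had 4 peaks in eCLIP-1, 6 in eCLIP-2 and 0 in the input, from its 5′ UTR (chr9:72662021-72662786 in eCLIP-2) to its 3′ UTR. Its coding exon summits at chr9:72718277 fell on the same base in both libraries, with 8 and 9 tags. Calr had 36 and 52 tags at its 3′ end (chr8:84842098-84843217), where the input had 19, and a second eCLIP-2 peak of 10 tags in the 5′ UTR. Nnat, an imprinted neuronal gene that lies inside Blcap, had 27 and 25 tags and no input peak, with summits in its 3′ UTR (chr2:157561220-157562394), but the gene rule gave these to Blcap. Ctnnd1, which codes for p120-catenin, had 3 tags in eCLIP-1, 0 in eCLIP-2 and 10 in the input, in its 5′ UTR. Hdgf, a growth factor gene, had 17 tags in eCLIP-2 alone, in its 3′ UTR. Fat1, Mark3 and Tcf7l2 had no peak in the 3 lists. The lists are much shorter than the peak sets the study describes, so these absences hold for the deposited lists only.

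Under coding exon summits the 5 hexamers were found more often on the gene's strand than on the other in both eCLIP libraries. In windows of 50 bases on either side of the summit, 53.8% of 535 eCLIP-1 windows (95% interval 49.5 to 58.1) and 49.7% of 453 eCLIP-2 windows (45.0 to 54.4) held at least 1, against 36.7% of 60 input windows (24.6 to 50.1). On the opposite strand the shares were 18.5% and 24.5%, against 28.3%. Coding segments of the same length held one in 40.7% over the genes peaked in both eCLIP libraries and in 32.9% over all protein-coding genes (opposite strand 19.5% and 21.7%). In intron windows the shares on the gene's strand were 20.4% and 18.4%, against 23.0% in the input. GAAGAA alone was in 37.2% and 28.7% of coding exon windows of 100 bases on either side, against 23.3% in the input. The hexamers were chosen with earlier results of these data known, exon sequence of any origin is rich in them, and the intervals of the input windows overlap those of both eCLIP libraries.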

How the data were processed

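Per the labels, the 3 embryo libraries were processed with bcl2fastq 2.18.0.12, cutadapt, STAR 2.5.2b and MACS 1.4.2 on mm10. According to the study's methods, reads from repeat elements were removed before mapping, and peaks were called against the input at a laxer limit. The deposited lists hold far fewer peaks than the study describes, and their headers name 0 control libraries, a p-value cutoff of 1e-05, a fragment size of 200 and a regional background of 10000 bp. The deposited tag count of a peak is the number of whole reads in it. The deposited score is log10 of the caller's p-value times a fixed negative factor, so that 50 stands for 1e-05. The deposited fold enrichment is a ratio to the same library's own surroundings, not to the input. Whether duplicate reads were removed alike in eCLIP and input is not given in the sources used here.

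Summits were placed as start plus summit minus 1 and matched to Gencode M21 basic genes, without strand. Gene tags were summed over peaks and divided by library tags. Groups came from the sample titles. Shares and tag ratios were compared by Fisher's exact test with Benjamini-Hochberg adjustment (scipy 1.17.1). Ratios were called at an adjusted p under 0.05 and at least 2-fold, and their intervals are exact binomial. The ratio calls were tested on simulated Poisson counts with no lower limit for a peak. That test therefore does not cover the effect of the unlike limits of the lists. Intervals cover counting error at 95%. Structural RNA matches used BLAST 2.17.0 at 90% identity over 50 bases. Members, gene lists and hexamers were chosen with earlier results of these data known. Genes were named as the 12 highest by mean eCLIP share with no input peak, the 8 with most shared regions, the 8 highest and 8 lowest ratios, up to 4 leading members of each of 20 lists (1 of them is not reported here), the 8 highest input-only genes and the genes named by the study. Smarca4, Map1b, Chd3, Vcan, the cell type markers, Gm42418 and mt-Rnr1 were added after their values were seen. Alternatives were score and fold minimums, another summit placement, tags in peaks as the total, leaving out each eCLIP library, and, added after seeing the data, leaving out windows with repeated words and counting a summit in every gene that spans it.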

Additional observations from a re-analysis of the deposited data

How the results depend on the processing

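No paired analysis was possible because the single input carries no replicate number, and the numbers 1 and 2 recur only in libraries that are not compared here. The count of 504 genes peaked in both eCLIP libraries was 188 with scores of at least 100, from 876 to 1006 with either eCLIP library alone and 253 without summit windows that hold a repeated word, an alternative chosen after seeing the data. The 357 of these without an input peak became 118 (92 shared), from 697 to 814, and 217 (204 shared) under the same 3 changes. Genes higher than the input numbered 62 as a share of tags in peaks and 70 of 70 tested at a score of at least 100, and regions 99 as a share of tags in peaks. Intron shares at that score were 33.5% and 31.9%, no longer past the threshold against the input, and coding exon shares fell to 14.9% and 12.3%. The 357 became 497 with only input peaks of at least 21.9 RPM, which leaves 7 in place of 147 with an input peak. Genes on any list numbered 53 at that score and from 293 to 311 with one eCLIP library. As a share of tags in peaks the mean log2 ratio was -0.38 for Hmgb1, -0.50 for Kdm1a, -0.75 for Gm20388, -0.88 for Magi1, -1.0 for Nedd4l, -1.12 for Dab1, -1.23 for Phactr2 and -1.32 for Dlgap4. These shifts follow from the other total or from fewer peaks and libraries. The other summit placements, the limit of more than 5-fold, the shortest gene and the other overlap changed none of the counts that answer a comparison by more than 1.5 times. Depth limits the eCLIP lists to loci of about 21.9 RPM and the input list to 1.59 RPM, and 1 input library leaves its own spread unknown.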

Other observations

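Small RNA genes of the snRNP and nucleolar families, chosen here after their values were seen, were also peaked in both eCLIP libraries. Rnu12, the U12 RNA of the minor spliceosome, held 14 tags in eCLIP-1 and 11 in eCLIP-2 with no input peak. Snord118, the U8 RNA used in ribosomal RNA processing, held 7 and 14, and Snord13 held 5 and 5, both with no input peak. Scarna2, a Cajal body RNA, held 19 and 28 tags, against 21 in the input. Rnu3a, a copy of the U3 RNA, held 13 and 13 tags, against 36 in the input. An unnamed snRNA gene, Gm22513, held 28 and 22 tags, against 18 in the input. Genes of these families can have near-identical copies, and tags at a single copy are then uncertain. The regions of Rnu3a and Gm22513 held a repeated word and that of Scarna2 did not.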
